A study of Mus musculus with 20 samples.

Results

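The 127 genes described here are, with 3 exceptions, genes of solute carriers, membrane proteins that move sugars, amino acids, ions, metals, nucleosides and metabolites across the membranes of cells and organelles. They were the protein-coding mouse genes named Slc followed by a number whose mean level reached 5 TPM (transcript abundance, a level scaled to gene length and to the total of the library) in at least 1 of 5 groups of libraries. Slc4a1, Slc11a2, Slc18a2, Slc25a37, Slc25a38 and Slc40a1 were left out by the same rule. The members were 127 of 371 protein-coding Slc genes, among 53379 gene identifiers in all, and 238 Slc genes lay under the threshold. The members nearest above it were Slc38a7 with a highest group mean of 5.27 TPM, Slc39a13 with 5.41 TPM and Slc35g1 with 5.50 TPM. The genes nearest below it were Slc9a9 at 4.995 TPM, Slc17a9 at 4.97 TPM and Slc22a15 at 4.92 TPM. Because the level in a group chose the members, a high level in some group is a description and not a finding. Slc4a1ap, Slc7a6os and Slc9a3r1 match the name rule but are not transporters, and Slc9a3r1 encodes a scaffold protein beneath the plasma membrane.

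Solute carriers of the plasma membrane supply growing blood cells with glucose, amino acids, nucleosides, phosphate and metals, while mitochondrial carriers of the SLC25 family exchange metabolites and nucleotides with the cytosol, and SLC35 proteins load nucleotide sugars into the Golgi apparatus and endoplasmic reticulum. Red cell precursors, macrophages, mast cells and granulocytes each carry a characteristic set of these transporters. GATA2, a DNA-binding protein with zinc fingers, acts in mast cells and in the stem and progenitor cells of blood, and binds DNA words that contain the letters GATA.

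The libraries were RNA-seq of blood progenitors of mouse fetal liver depleted of cells with mature lineage markers, infected with a murine stem cell virus (MSCV) retroviral vector and grown for 3 days. The first 4 groups lacked the -77 kb enhancer of Gata2 (enhancer-null cells) and carried, in turn, GATA2 with the protein change R307W, GATA2 with T354M, wild-type GATA2, or an empty control vector; the fifth was wild-type cells with the control vector. Each group had 4 libraries. For the last 3 groups the labels give E14.5 embryos, the strain C57BL/6J and a medium with interleukin 3 and stem cell factor, whereas for R307W and T354M the labels give neither age nor strain nor medium. Any effect of how the cells were handled therefore cannot be told apart from a difference between a variant and another group. The labels do not say whether replicates came from separate animals or cultures, so p-values measure only the spread between these libraries. In bulk RNA, fewer cells of a type and less RNA per cell cannot be told apart.

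Library totals ran from 22330475 to 33245876 expected counts. Gata2 itself ranged from 17 to 37.8 TPM with R307W, from 20.8 to 44.7 TPM with T354M and from 21.4 to 48.2 TPM with wild-type GATA2, against 1.57 to 2.38 TPM in enhancer-null cells with the empty vector and 10.1 to 17.1 TPM in wild-type cells. These counts do not separate the vector from the endogenous gene. Marker genes of mature cells differed widely between the groups. The summed level of 11 erythroid markers was 376 to 837 TPM with R307W, 207 to 338 TPM with T354M, 310 to 571 TPM with GATA2, 335 to 1270 TPM in enhancer-null cells with the empty vector and 4440 to 8540 TPM in wild-type cells. For 9 monocyte and macrophage markers the sums were 256 to 590 TPM with R307W, 250 to 727 TPM with T354M, 206 to 569 TPM with GATA2, 820 to 986 TPM in enhancer-null cells with the empty vector and 220 to 390 TPM in wild-type cells. For 10 mast cell and basophil markers they were 315 to 662 TPM with R307W, 320 to 958 TPM with T354M, 1060 to 3140 TPM with GATA2, 46.1 to 56.3 TPM in enhancer-null cells with the empty vector and 456 to 662 TPM in wild-type cells. Markers of all 3 kinds were above 0 in each group, and their part in the results below was not tested.

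The ranges of the members' summed level in the 5 groups were close. It averaged 2295 ± 145 TPM with R307W, 2357 ± 142 TPM with T354M, 2297 ± 202 TPM with GATA2, 2334 ± 110 TPM in enhancer-null cells with the empty vector and 2218 ± 75 TPM in wild-type cells (SD, n = 4 each). The sum was 0.206 to 0.255% of all TPM in a library. Single members varied more. The ratio of the highest to the lowest group mean had a median of 1.68 over the 127 members, and it was under 1.5 for 50 members, at least 2 but under 4 for 26 and at least 4 for 19. The highest group mean fell in the R307W group for 16 members, in the T354M group for 35, in the GATA2 group for 8, in enhancer-null cells with the empty vector for 35 and in wild-type cells for 33.

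The 2 most abundant members of the mitochondrial carrier class were Slc25a5 and Slc25a3, and those of the amino acid class Slc3a2 and Slc1a5. Slc25a5, which exchanges ADP and ATP between mitochondria and cytosol, averaged 310 ± 18.1 TPM with R307W, 319 ± 38.8 TPM with T354M, 304 ± 30.6 TPM with GATA2, 322 ± 15.6 TPM in enhancer-null cells with the empty vector and 268 ± 28.5 TPM in wild-type cells (SD, n = 4 each). Slc25a3, the mitochondrial phosphate carrier, averaged 155 ± 18.4 TPM with R307W, 158 ± 9.11 TPM with T354M, 153 ± 26.9 TPM with GATA2, 162 ± 16.3 TPM in enhancer-null cells with the empty vector and 152 ± 18.4 TPM in wild-type cells. Slc1a5, a glutamine and neutral amino acid exchanger, averaged 36.2 ± 2.96 TPM with R307W, 37.5 ± 2.72 TPM with T354M, 35.3 ± 4.80 TPM with GATA2, 35.6 ± 2.15 TPM in enhancer-null cells with the empty vector and 32.9 ± 1.63 TPM in wild-type cells. None of the 3 passed the test in any of the 8 comparisons. Slc3a2, the heavy chain that carries several amino acid exchangers to the cell surface, averaged 62.1 ± 7.60 TPM with R307W, 65.9 ± 3.83 TPM with T354M, 78.8 ± 3.63 TPM with GATA2, 64.1 ± 6.72 TPM in enhancer-null cells with the empty vector and 54.2 ± 6.57 TPM in wild-type cells. It passed the test between GATA2-expressing enhancer-null cells and wild-type cells, where it was 1.41-fold higher (log2 difference 0.49, SE 0.12, adjusted p = 0.00307).

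Tests were run for the 106 members whose mean over all 20 libraries was at least 5 TPM, a filter that does not look at the groups, and called genes are those with an adjusted p below 0.05 over 15835 genes (edgeR quasi-likelihood test, Benjamini-Hochberg). Of these 106, Slc25a21, Slc38a5, Slc15a3 and Slc25a22 reached 5 TPM in only 1 group, so a difference from that group is a description. The other 21 members are given as levels with no test. Between enhancer-null cells with the empty vector and wild-type cells, 38 of the 106 were higher and 26 lower, where 25.2% of protein-coding genes past the same filter were higher and 23% lower, and 20.1% and 23.2% of all genes tested. The share of members called lower was thus near the background. Without the 4 members at 5 TPM in only 1 group, 36 of 102 were higher and 24 lower. With GATA2, 19 members were higher and 20 lower than with the empty vector, beside backgrounds of 11.9% and 8.94% of such protein-coding genes and 11% and 8.23% of all genes. The 20 include Slc15a3, which reached 5 TPM in only 1 group. R307W against the empty vector had 12 higher and 14 lower, beside 11.6% and 7.92% of protein-coding and 10% and 7.48% of all genes. T354M against the empty vector had 14 in each direction, beside 11.8% and 8.66% of protein-coding and 9.26% and 8.11% of all genes. The 3 vector comparisons share the empty-vector libraries, and those libraries are also part of the comparison with wild-type cells.

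The comparisons within the vector groups called fewer members. R307W against GATA2 had 1 member higher and 3 lower, beside 0.571% and 0.819% of protein-coding and 0.587% and 1.14% of all genes. T354M against GATA2 had 8 higher and 11 lower, beside 4.97% and 5.64% of protein-coding and 3.86% and 6.14% of all genes. R307W against T354M had 5 higher and 6 lower, beside 2.02% and 1.58% of protein-coding and 2.3% and 1.19% of all genes. Same-numbered libraries deviated together in these 3 comparisons for most replicate numbers but not for all. With the number as a block, R307W against GATA2 had 6 lower, T354M against GATA2 had 13 higher and R307W against T354M had 8 higher. The shares of protein-coding genes under the block were 1.5%, 7.15% and 3.31%. Enhancer-null cells carrying GATA2 had 27 members higher and 19 lower than wild-type cells, beside 19.9% and 14.1% of protein-coding and 14.7% and 16% of all genes. The 19 include Slc25a21 and Slc38a5, which are members through their wild-type level, so their place in this count is a description.

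Replicate 4 had the most expected counts in each group. Gata2 was highest in replicate 4 with GATA2 (48.2 TPM) and R307W (37.8 TPM), and in replicate 1 with T354M (44.7 TPM). The part of depth and of Gata2 level in the following shifts was not tested. Leaving out replicate 4 of a vector group lowered several of these counts, of members and of all genes. Not every count fell. Without T354M replicate 4, GATA2 against wild-type cells had 35 higher in place of 27. Without GATA2 replicate 4, 11 members were lower with GATA2 than with the empty vector, beside 3.09% of protein-coding genes, and 0 of the 106 were lower with R307W than with GATA2, beside 0.335%. Without R307W replicate 4, R307W against the empty vector had 7 higher and 6 lower, beside 6.9% and 2.15%. Without T354M replicate 4, T354M against the empty vector had 8 higher and 6 lower, beside 6.73% and 4.01%.

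**Figure D1:**
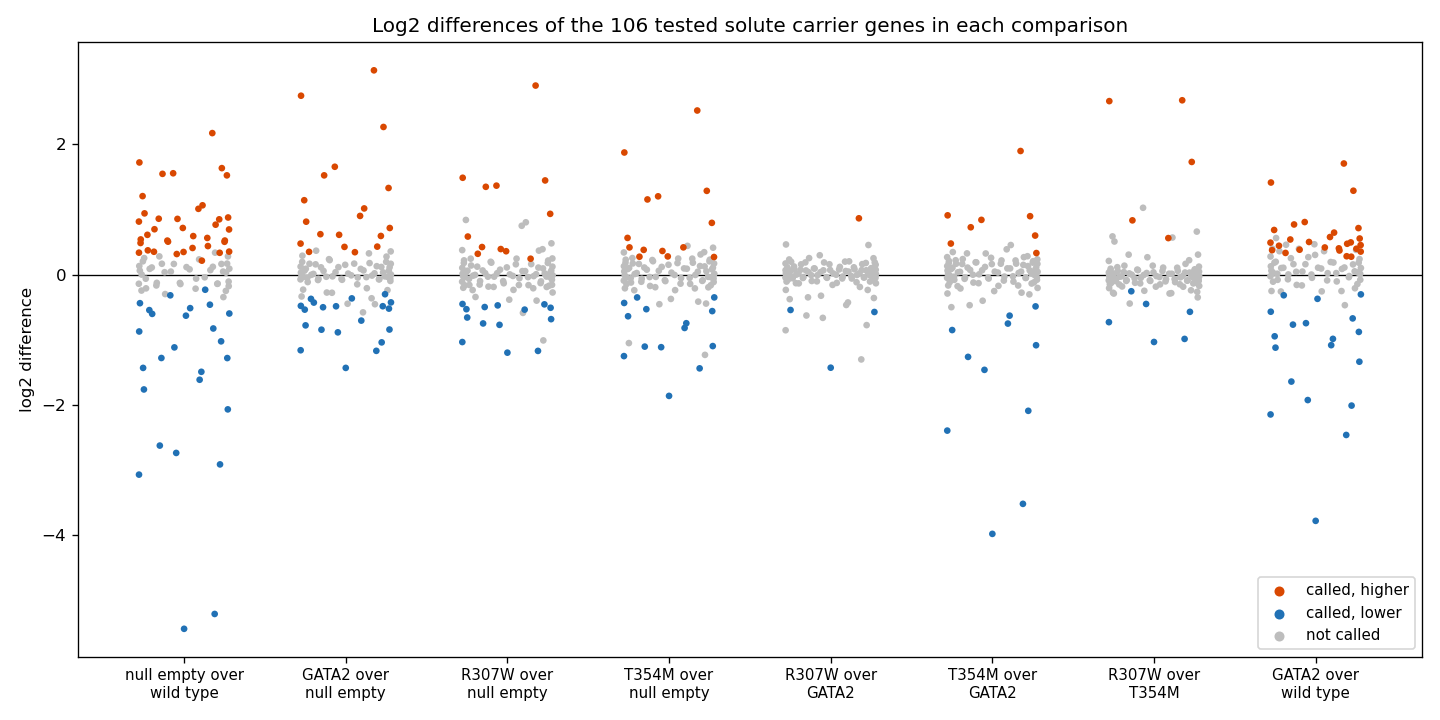
Log2 differences (vertical axis) of the 106 tested members in the 8 comparisons (horizontal axis, the first-named group over the second), 1 point per gene, with genes called higher in orange, genes called lower in blue and genes not called in grey. The lowest points, at -5.44 and -5.21 for enhancer-null cells with the empty vector over wild-type cells, are Slc25a21 and Slc38a5, which became members through their wild-type level and so had to differ there.

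Grouped by substrate, the counts between enhancer-null cells with the empty vector and wild-type cells are given beside the 25.2% higher and 23% lower of protein-coding genes. Of 11 tested carriers of organic acids, organic cations, fatty acids and urea, 1 was higher and 7 were lower, with a median log2 difference of -0.60. Of 7 carriers of inorganic ions, 4 were higher and 0 were lower, with a median of 0.51. Of 16 members of the metal ion class 8 were higher and 3 lower, and of 14 of the nucleotide sugar class 6 were higher and 1 lower. Amino acid carriers went both ways, with 5 of 16 higher and 4 lower. Mitochondrial carriers did so too, with 8 of 25 higher and 6 lower. The 4 include Slc38a5, the 6 Slc25a21 and the 8 Slc25a22, each at 5 TPM in only 1 group. Over all genes tested the median was -0.05. With GATA2 against the empty vector, 6 of the 11 organic acid and ion carriers were higher and 1 was lower, and 0 of the 7 inorganic ion carriers were higher and 3 were lower, beside 11.9% and 8.94% of protein-coding genes. These counts describe small classes and no test was made on a class.

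**Figure D2:**
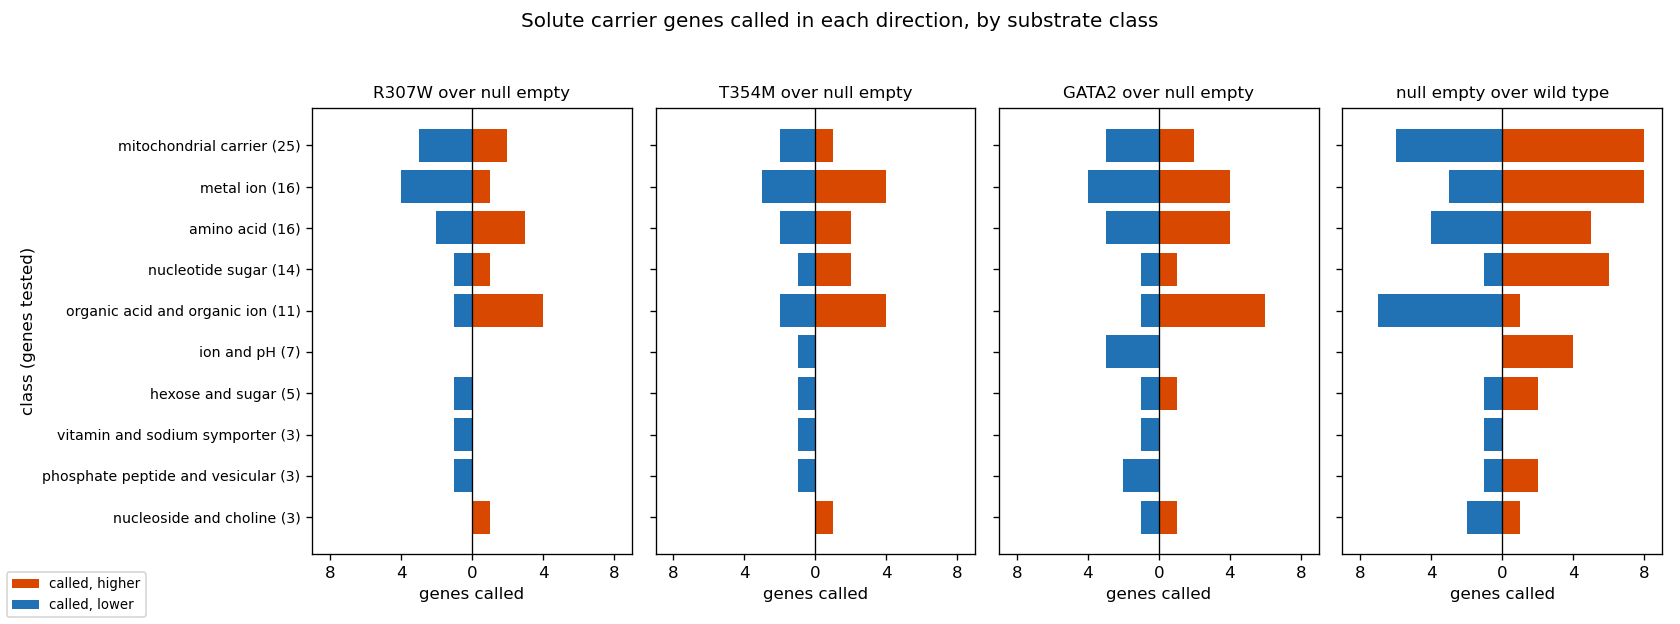
Numbers of members called higher (orange, right of 0) and lower (blue, left of 0) in 10 substrate classes (rows, with the number tested) for R307W, T354M and GATA2 over the empty vector in enhancer-null cells and for enhancer-null over wild-type cells. In the last panel the organic acid and organic ion class has 7 lower and 1 higher, and the inorganic ion and pH class has 4 higher.

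A set of carriers stayed far under the wild-type level in every enhancer-null group. Slc25a21, a mitochondrial carrier of oxodicarboxylates such as oxoadipate (GRCm38 chr12:56712634-57197472, minus strand), had 0.97, 0.98, 0.84 and 1.15 TPM with R307W, 0.08, 0.34, 0.28 and 0.07 TPM with T354M and 1.94, 1.91, 0.72 and 2.72 TPM with GATA2. It had 0.47, 0.65, 0.22 and 0.81 TPM in enhancer-null cells with the empty vector, against 18.1, 22.9, 27.7 and 24.6 TPM in wild-type cells. All 16 enhancer-null libraries lay far under all wild-type libraries, and the T354M libraries lay under those with GATA2 and with R307W. Its wild-type level is what made it a member, so the difference from wild-type cells is a description with no test. With T354M it was 11.5-fold lower than with GATA2 (log2 difference -3.52, SE 0.47, adjusted p = 8.24e-05). The size of this difference depends on the fit at such low levels. It was -1.2 in a limma fit on log2(TPM + 1) and -2.71 on log2(TPM + 0.1), and the call was kept in both.

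Slc38a5, a sodium-coupled transporter of glutamine, serine and histidine (GRCm38 chrX:8271133-8280179, plus strand), followed the same order of groups. It had 1.77, 1.05, 1.48 and 2.5 TPM with R307W, 0.32, 0.25, 0.52 and 0.12 TPM with T354M and 3.86, 3.91, 1.39 and 6.89 TPM with GATA2. In enhancer-null cells with the empty vector it had 0.64, 0.82, 0.67 and 1.28 TPM, against 17, 16, 24.4 and 22.1 TPM in wild-type cells. The GATA2 libraries did not overlap those with the empty vector, and none reached the lowest wild-type library. It too is a member through its wild-type level alone, and no test against wild-type cells is given. Slc38a5 was 6.72-fold higher with GATA2 than with the empty vector (log2 difference 2.75, SE 0.41, adjusted p = 0.000122) and 15.8-fold lower with T354M than with GATA2 (log2 difference -3.98, SE 0.45, adjusted p = 1.52e-05). With R307W it was 6.40-fold higher than with T354M (adjusted p = 0.00179). In a limma fit on log2(TPM + 1) these log2 differences shrank, in the same order, to 1.33, -1.83 and 1.03, and the calls were kept. The difference between R307W and GATA2 did not pass (log2 difference -1.30, SE 0.37, adjusted p = 0.0921).

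Slc14a1, the urea transporter of red cells that carries the Kidd blood group in humans, differed between the variants as well. It had 3.92, 2.89, 2.92 and 4.39 TPM with R307W, 1.20, 0.97, 1.06 and 0.95 TPM with T354M and 5.83, 4.98, 3.40 and 6.71 TPM with GATA2, against 2.65, 2.46, 2.22 and 2.97 TPM in enhancer-null cells with the empty vector. Wild-type cells had 17, 17.6, 22.5 and 18.4 TPM. The T354M libraries were the lowest of all 20, and those with the empty vector overlapped those with R307W. Slc14a1 was 2.38-fold lower with T354M than with the empty vector (log2 difference -1.25, SE 0.21, adjusted p = 0.000427) and 2.21-fold higher with GATA2 than with the empty vector (log2 difference 1.14, SE 0.20, adjusted p = 0.000562). It was 3.32-fold higher with R307W than with T354M (adjusted p = 0.000105). The erythroid markers moved with these 3 genes in part. Of the 11, 6 were called lower with T354M than with GATA2. All 11 were called lower in enhancer-null cells with the empty vector than in wild-type cells. With GATA2 over the empty vector, 6 were called higher and 1 lower. There the globin genes Hba-a1, Hba-a2, Hbb-bs and Hbb-bt went the other way (log2 differences -1.495, -1.718, -1.57 and -1.082), with Hba-a2 called.

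Other members lower in enhancer-null cells showed smaller differences between the vectors. Slc39a8, which takes up zinc and manganese, had 6.34, 5.05, 6.04 and 8.16 TPM with R307W, 4.40, 4.57, 4.11 and 4.36 TPM with T354M and 4.76, 4.34, 3.67 and 4.98 TPM with GATA2, against 1.88, 2.85, 2.71 and 2.47 TPM in enhancer-null cells with the empty vector. Wild-type cells had 15.5, 17, 21.2 and 14.4 TPM. Each vector group lay above the empty-vector libraries and below the wild-type libraries with no overlap. Slc39a8 was 7.53-fold lower in enhancer-null cells with the empty vector than in wild-type cells (adjusted p = 7.66e-10), and higher than with the empty vector by 2.58-fold with R307W (adjusted p = 1.57e-05), 1.74-fold with T354M (adjusted p = 0.00258) and 1.87-fold with GATA2 (adjusted p = 0.000814). Slc43a1, a transporter of branched-chain amino acids, averaged 4.07 ± 0.399 TPM with R307W, 3.25 ± 0.242 TPM with T354M, 5.73 ± 1.07 TPM with GATA2, 4.32 ± 0.106 TPM in enhancer-null cells with the empty vector and 24.9 ± 3.79 TPM in wild-type cells (SD, n = 4 each). It was 6.17-fold lower in enhancer-null cells with the empty vector than in wild-type cells (adjusted p = 2.24e-10) and 4.43-fold lower in enhancer-null cells with GATA2 than in wild-type cells (adjusted p = 2.67e-09).

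A pair of general nutrient carriers stayed under the wild-type level in all enhancer-null groups. Slc29a1, the equilibrative nucleoside transporter, had 18.8 to 21.1 TPM with R307W, 19.9 to 22 TPM with T354M, 21.5 to 26.6 TPM with GATA2 and 20.6 to 22.5 TPM with the empty vector, against 43.1 to 60.0 TPM in wild-type cells. Slc20a1, a sodium-phosphate cotransporter, had 24.4 to 29.5 TPM with R307W, 24.8 to 31.3 TPM with T354M, 25.7 to 31.4 TPM with GATA2 and 23.4 to 30.8 TPM with the empty vector, against 40.8 to 52.7 TPM in wild-type cells. For both genes the wild-type libraries stood above all 16 others. Slc29a1 was 2.43-fold lower (adjusted p = 4.84e-07) and Slc20a1 1.77-fold lower (adjusted p = 2.60e-07) in enhancer-null cells with the empty vector than in wild-type cells. With GATA2 in place of the empty vector they were 2.12-fold lower (adjusted p = 6.12e-06) and 1.70-fold lower (adjusted p = 1.31e-06) than in wild-type cells. Of the exon bases of Slc20a1, 13.1% are shared with other annotated genes.

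The promoters of members that moved in different ways are shown to place the DNA words that GATA factors bind against these differences. RefSeq promoter windows (GRCm38.p6) matched 103 of the 127 members with 137 start sites, and the 250 bases before each start were searched on both strands for 4 words that share the letters GATA, so that matches can overlap. They were AGATAA and also TGATAA. The words with G at the end were AGATAG and also TGATAG. A match was found in 23 of the 137 member windows (16.8%) and in 8718 of all 32851 windows (26.5%). Capitals mark the matches in the sequences of Slc25a21 and Slc22a3, with the largest differences, among the 106 tested members, between enhancer-null and wild-type cells and between GATA2 and the empty vector, and of Slc28a2 and Slc8a1, with the largest difference between T354M and the empty vector and the largest increase in enhancer-null cells among the same members. Slc25a21 has a second start site, whose window had no match either. Slc28a2 has 1 match and Slc8a1 has 3, of which 1 is on the opposite strand. A match in these windows is a description, and distal elements were not searched.
Slc25a21 (chr12:57197473-57197722, minus strand): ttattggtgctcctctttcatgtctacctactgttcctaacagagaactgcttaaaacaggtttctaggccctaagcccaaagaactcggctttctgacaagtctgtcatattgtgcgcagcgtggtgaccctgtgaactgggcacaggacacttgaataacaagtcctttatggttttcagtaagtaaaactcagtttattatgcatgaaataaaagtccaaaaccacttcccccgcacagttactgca
Slc22a3 (chr17:12507705-12507954, minus strand): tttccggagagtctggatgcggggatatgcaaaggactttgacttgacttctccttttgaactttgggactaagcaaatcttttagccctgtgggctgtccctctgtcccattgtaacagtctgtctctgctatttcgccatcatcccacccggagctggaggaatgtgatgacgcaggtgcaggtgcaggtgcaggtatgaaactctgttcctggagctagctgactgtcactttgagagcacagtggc
Slc28a2 (chr2:122426185-122426434, plus strand): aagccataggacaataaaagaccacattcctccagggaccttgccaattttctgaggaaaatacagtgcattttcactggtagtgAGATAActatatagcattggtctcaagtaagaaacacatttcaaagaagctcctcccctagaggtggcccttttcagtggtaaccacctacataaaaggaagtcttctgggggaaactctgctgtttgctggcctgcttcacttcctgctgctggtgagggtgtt
Slc8a1 (chr17:81738388-81738637, minus strand): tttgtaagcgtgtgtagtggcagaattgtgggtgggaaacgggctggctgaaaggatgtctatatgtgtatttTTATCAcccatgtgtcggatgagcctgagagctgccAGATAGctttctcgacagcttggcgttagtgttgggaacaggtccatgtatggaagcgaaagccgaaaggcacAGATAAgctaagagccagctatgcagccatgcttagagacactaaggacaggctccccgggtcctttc

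Other members lower in enhancer-null cells had means nearer the wild-type level with wild-type GATA2 than with the variants. Slc41a3, of a family of magnesium transporters (GRCm38 chr6:90604725-90646412, plus strand), had 3.55, 3.44, 3.31 and 5.35 TPM with R307W, 2.46, 2.27, 1.93 and 3.25 TPM with T354M and 9.91, 9.63, 5.16 and 15.6 TPM with GATA2. With the empty vector, enhancer-null cells had 2.15, 2.03, 1.72 and 2.57 TPM, against 13.3, 10.5, 15.5 and 15.4 TPM in wild-type cells. The GATA2 libraries lay above those with T354M and with the empty vector without overlap, while R307W replicate 4 exceeded GATA2 replicate 3. Slc41a3 rose 4.82-fold with GATA2 over the empty vector (log2 difference 2.27, SE 0.30, adjusted p = 4.58e-05) and was 4.26-fold lower with T354M than with GATA2 (log2 difference -2.09, SE 0.30, adjusted p = 0.000133). It was 2.69-fold lower with R307W than with GATA2 (log2 difference -1.43, SE 0.29, adjusted p = 0.0118), a call that ended without GATA2 replicate 4 (adjusted p = 0.0629), without R307W replicate 1 (0.0555) and without R307W replicate 3 (0.0537). GATA2-expressing enhancer-null cells and wild-type cells did not pass the test for Slc41a3 (log2 difference -0.47, SE 0.28, adjusted p = 0.225).

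Among carriers of glucose and lactate, Slc2a3, the high-affinity glucose transporter GLUT3, had 34.5, 20.2, 19.9 and 28.6 TPM with R307W, 18.3, 13.7, 12.6 and 13.6 TPM with T354M and 56.0, 34.7, 24.8 and 43.1 TPM with GATA2. The empty-vector enhancer-null libraries had 17.1, 16.3, 22.1 and 23.3 TPM, against 34.4, 74.1, 69.8 and 57.1 TPM in wild-type cells. GATA2 libraries stood above those with T354M and with the empty vector and overlapped those with R307W and of wild-type cells. Slc2a3 was 2.03-fold higher with GATA2 than with the empty vector (adjusted p = 0.00361), 2.75-fold lower with T354M than with GATA2 (adjusted p = 0.000256) and 3.39-fold lower in enhancer-null cells with the empty vector than in wild-type cells (adjusted p = 4.75e-06). It was called lower in enhancer-null cells with GATA2 than in wild-type cells (log2 difference -0.74, adjusted p = 0.0144), a call that ended without GATA2 replicate 2 (adjusted p = 0.0559) and without GATA2 replicate 3 (0.0686). Slc2a1, the other main glucose transporter of blood cells, averaged 13.2 ± 4.95 TPM with R307W, 12.1 ± 1.78 TPM with T354M, 18.2 ± 7.77 TPM with GATA2, 13.2 ± 2.14 TPM in enhancer-null cells with the empty vector and 15.4 ± 2.83 TPM in wild-type cells, and passed the test in none of the 8 comparisons.

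Slc16a3, the monocarboxylate transporter MCT4 that exports lactate, had 26.8, 14.8, 11 and 21.1 TPM with R307W, 19, 12.6, 10.5 and 17.1 TPM with T354M and 43.4, 28.2, 16.4 and 32.7 TPM with GATA2. Enhancer-null cells with the empty vector had 11.9, 10.5, 8.90 and 10.2 TPM, against 21.7, 19.1, 35.7 and 47.4 TPM in wild-type cells. The empty-vector libraries stood below all GATA2 and all wild-type libraries. Slc16a3 was 2.88-fold higher with GATA2 than with the empty vector (log2 difference 1.53, SE 0.30, adjusted p = 0.00176) and 3.06-fold lower in enhancer-null cells with the empty vector than in wild-type cells (adjusted p = 0.000271). The difference from the empty vector did not pass with R307W (log2 difference 0.75, SE 0.30, adjusted p = 0.0902) or with T354M (log2 difference 0.44, SE 0.30, adjusted p = 0.347). The difference between R307W and GATA2 did not pass either (adjusted p = 0.327). Slc16a3 was called lower with T354M than with GATA2 (log2 difference -1.08, adjusted p = 0.0241). That call ended in limma fits with pseudocounts of 1 and 0.1 (adjusted p = 0.0748 and 0.0707). Leaving out single libraries also ended it, for example GATA2 replicate 4 (0.0828). Slc16a1, the lactate importer MCT1, averaged 23.8 ± 3.44 TPM with R307W, 28.6 ± 3.60 TPM with T354M, 25.2 ± 3.15 TPM with GATA2, 26.1 ± 3.56 TPM in enhancer-null cells with the empty vector and 35.6 ± 4.72 TPM in wild-type cells. It was 1.46-fold lower in enhancer-null cells with the empty vector than in wild-type cells (adjusted p = 0.000310) and passed in none of the comparisons of a vector with the empty vector.

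Slc7a5, the light chain that pairs with Slc3a2 to import leucine and other large neutral amino acids, was higher over the empty vector with wild-type GATA2 and not with either variant at this threshold. It had 25.4, 28.1, 27.4 and 27.2 TPM with R307W, 24.3, 27.4, 23.4 and 26.2 TPM with T354M and 39.7, 37.2, 30.3 and 46 TPM with GATA2. With the empty vector, enhancer-null cells had 25.4, 28.8, 24.9 and 26.1 TPM, and wild-type cells 28.4, 24.2, 26.5 and 30.8 TPM. The GATA2 libraries lay above the R307W, T354M and empty-vector libraries without overlap. Slc7a5 was 1.51-fold higher with GATA2 than with the empty vector (log2 difference 0.60, SE 0.12, adjusted p = 0.00237), 1.55-fold lower with T354M than with GATA2 (log2 difference -0.63, SE 0.12, adjusted p = 0.00204) and 1.49-fold lower with R307W than with GATA2 (log2 difference -0.57, SE 0.12, adjusted p = 0.0173). The R307W call ended without GATA2 replicate 4 (adjusted p = 0.0726), without R307W replicate 1 (0.0762) and without R307W replicate 3 (0.0641).

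**Figure D3:**
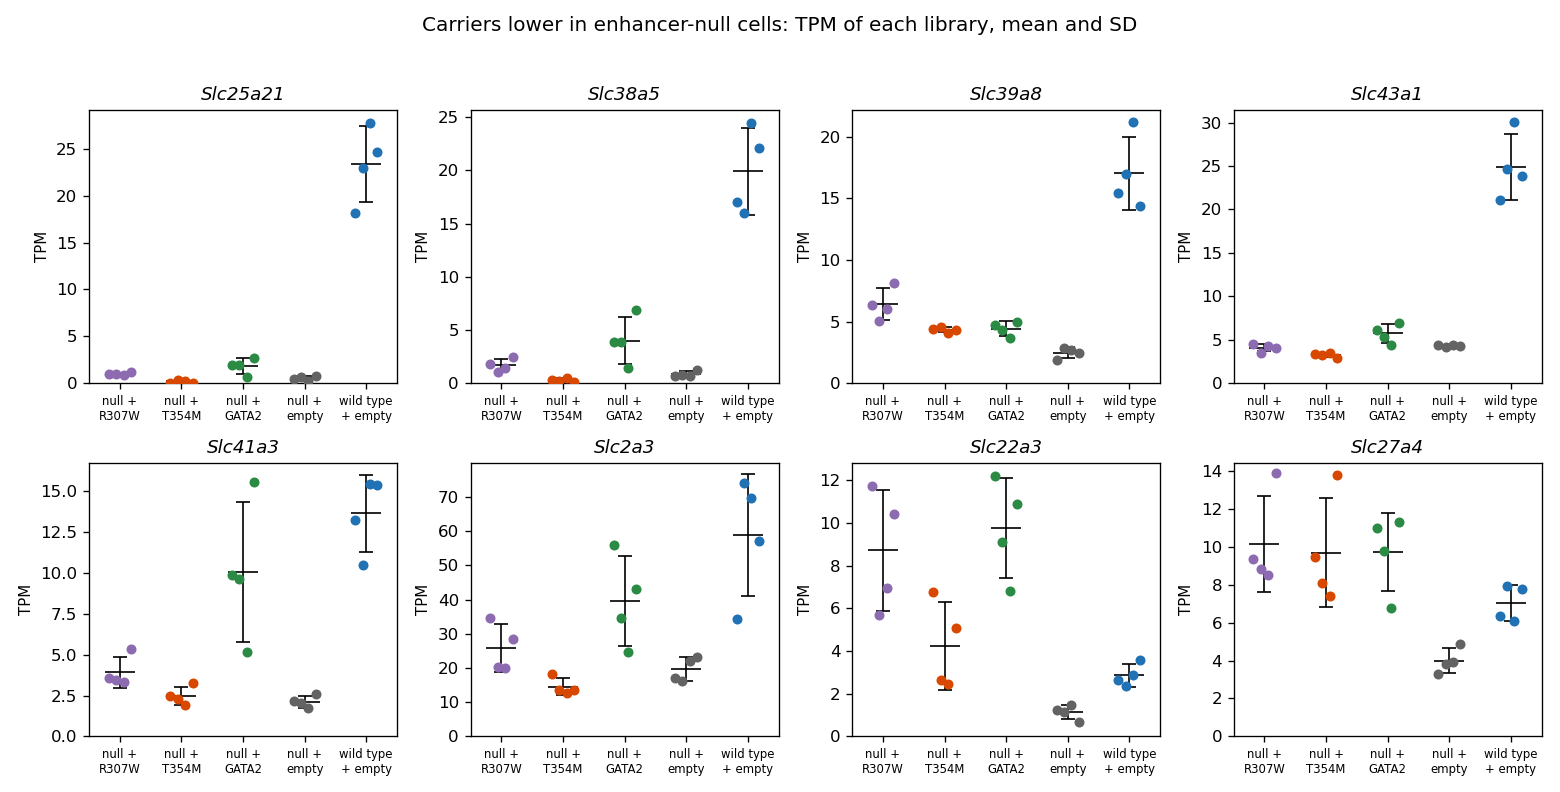
TPM (vertical axes, linear from 0) of 8 members in each library by group (horizontal axes, "null" for enhancer-null cells), with a point per library, a horizontal bar for the mean and error bars of 1 SD over 4 libraries. Slc25a21 has 0.07 to 2.72 TPM in all enhancer-null libraries against 18.1 to 27.7 TPM in wild-type libraries, and Slc22a3 has 6.82 to 12.2 TPM with GATA2.

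Transporters of organic cations and fatty acids were higher with each of the 3 vectors than with the empty vector. Slc22a3, an organic cation transporter that carries histamine and other amines (GRCm38 chr17:12418960-12507704, minus strand), had 11.8, 5.70, 6.97 and 10.4 TPM with R307W, 6.75, 2.65, 2.45 and 5.10 TPM with T354M and 12.2, 9.12, 6.82 and 10.9 TPM with GATA2. The empty-vector enhancer-null libraries had 1.25, 1.16, 1.48 and 0.69 TPM, against 2.63, 2.35, 2.87 and 3.57 TPM in wild-type cells. All 12 libraries with a GATA2 vector lay above the empty-vector libraries, and those with GATA2 lay above wild type as well. Slc22a3 rose 7.49-fold with R307W (log2 difference 2.90, SE 0.32, adjusted p = 6.11e-06), 3.67-fold with T354M (1.88, SE 0.31, adjusted p = 0.000413) and 8.81-fold with GATA2 (3.14, SE 0.32, adjusted p = 3.24e-06) over the shared empty-vector libraries. It was 2.4-fold lower with T354M than with GATA2 (adjusted p = 0.00775), and 3.27-fold higher in enhancer-null cells with GATA2 than in wild-type cells (adjusted p = 0.000231). The mast cell and basophil markers moved with it, with 9 of 10 called higher with GATA2 than with the empty vector, while 7 of 10 were called lower with R307W than with GATA2. The summed level of 7 eosinophil markers was 1590 to 3820 TPM with R307W, 1040 to 5660 TPM with T354M, 2100 to 3750 TPM with GATA2, 9.68 to 17.5 TPM in enhancer-null cells with the empty vector and 643 to 1080 TPM in wild-type cells, and 7 of 7 were called higher with GATA2 than with the empty vector. The part of either list in the result was not tested.

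Slc27a4, a fatty acid transport protein with acyl-CoA synthetase activity, had 9.37, 8.83, 8.53 and 13.9 TPM with R307W, 9.47, 8.08, 7.43 and 13.8 TPM with T354M and 11, 9.77, 6.78 and 11.3 TPM with GATA2. Enhancer-null cells with the empty vector had 3.31, 3.83, 3.93 and 4.88 TPM, and wild-type cells 6.35, 7.94, 6.08 and 7.75 TPM. The 3 vectors gave overlapping values, and all lay above the empty vector. The fold over the empty vector was 2.55 with R307W (adjusted p = 0.000713), 2.44 with T354M (adjusted p = 0.00104) and 2.52 with GATA2 (adjusted p = 0.000677). Slc25a1, the mitochondrial citrate carrier, averaged 39.9 ± 10.03 TPM with R307W, 27.6 ± 2.56 TPM with T354M, 36.2 ± 5.28 TPM with GATA2, 20.4 ± 1.35 TPM in enhancer-null cells with the empty vector and 30.8 ± 4.64 TPM in wild-type cells (SD, n = 4 each). It was 1.91-fold higher with R307W (adjusted p = 0.000799) and 1.76-fold higher with GATA2 (adjusted p = 0.00215) than with the empty vector, and did not pass with T354M (log2 difference 0.35, SE 0.17, adjusted p = 0.163).

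Slc7a6, which exchanges cationic for neutral amino acids, had a mean above that of wild-type cells in every enhancer-null group. It averaged 25.3 ± 3.09 TPM with R307W, 25.2 ± 2.82 TPM with T354M, 31.5 ± 2.07 TPM with GATA2, 21.6 ± 2.45 TPM in enhancer-null cells with the empty vector and 11.4 ± 2.44 TPM in wild-type cells (SD, n = 4 each). It was 1.62-fold higher in enhancer-null cells with the empty vector than in wild-type cells (adjusted p = 0.000441), 1.64-fold higher with GATA2 than with the empty vector (adjusted p = 0.00132) and 2.67-fold higher in enhancer-null cells with GATA2 than in wild-type cells (adjusted p = 5.34e-07).

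Among the 106 tested members, the largest difference that set T354M above GATA2 was in a nucleoside transporter. Slc28a2, a sodium-coupled transporter with a preference for purine nucleosides (GRCm38 chr2:122426477-122461137, plus strand), had 12.5, 13.2, 13.4 and 10.2 TPM with R307W, 28.3, 22.2, 22.9 and 25.7 TPM with T354M and 7.69, 7.79, 6.14 and 4.96 TPM with GATA2. It had 5.36, 4.68, 4.01 and 2.92 TPM in enhancer-null cells with the empty vector, and 4.42, 7.42, 5.43 and 4.07 TPM in wild-type cells. The T354M libraries were the highest of all 20 and the R307W libraries came next, with no overlap with GATA2. Slc28a2 was 3.73-fold higher with T354M than with GATA2 (log2 difference 1.90, SE 0.16, adjusted p = 1.64e-06), 1.82-fold higher with R307W than with GATA2 (log2 difference 0.87, SE 0.16, adjusted p = 0.00635) and 2.05-fold lower with R307W than with T354M (log2 difference -1.03, SE 0.16, adjusted p = 0.000835). It was the 1 member called higher with R307W than with GATA2, and each of these 3 calls held when any single library was left out. Over the empty vector it was 5.74-fold higher with T354M (adjusted p = 8.36e-09) and 2.81-fold higher with R307W (adjusted p = 6.78e-06). Part of its reads map to more than 1 gene, as its count was fractional in 17 libraries, and its near-identical neighbour Gm14085 had at most 0.64 TPM.

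Slc35b4, which carries UDP-xylose and UDP-N-acetylglucosamine into the Golgi apparatus and endoplasmic reticulum (GRCm38 chr6:34153380-34177111, minus strand), had its highest levels with T354M. It had 14.8, 9.16, 12.8 and 11.7 TPM with R307W, 26, 21.5, 18.8 and 25.1 TPM with T354M and 13.8, 12.7, 10.7 and 9.79 TPM with GATA2. With the empty vector, enhancer-null cells had 9.09, 11.1, 10.2 and 9.26 TPM, and wild-type cells 6.49, 7.21, 6.71 and 8.14 TPM. No library of another group reached the lowest T354M library. Slc35b4 was 1.88-fold higher with T354M than with GATA2 (log2 difference 0.91, SE 0.11, adjusted p = 2.99e-05), 2.30-fold higher than with the empty vector (log2 difference 1.20, SE 0.11, adjusted p = 4.96e-07) and 1.98-fold lower with R307W than with T354M (log2 difference -0.99, SE 0.11, adjusted p = 5.25e-05). The difference between R307W and GATA2 was -0.07 (log2, SE 0.11, adjusted p = 0.999).

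Smaller differences of the same direction were seen in carriers of copper, calcium and zwitterions. Slc31a2, which resembles the copper importer Slc31a1 and acts on copper stores, had 15, 14.4, 13.7 and 10.4 TPM with R307W, 22.8, 22.7, 19.4 and 23.7 TPM with T354M and 14.6, 11.8, 12.5 and 9.19 TPM with GATA2. The empty-vector enhancer-null libraries had 16.3, 14.3, 13.9 and 14.2 TPM, and wild-type cells 8.96, 16.4, 9.99 and 10.3 TPM. The T354M libraries lay above all others. Slc31a2 was 1.79-fold higher with T354M than with GATA2 (adjusted p = 0.000985) and 1.66-fold lower with R307W than with T354M (adjusted p = 0.00799), and without replicate 4 of all groups the last call ended (adjusted p = 0.123). Slc8b1, the mitochondrial sodium-calcium exchanger, averaged 13.1 ± 2.05 TPM with R307W, 18.4 ± 1.64 TPM with T354M, 9.39 ± 1.93 TPM with GATA2, 13.9 ± 1.96 TPM in enhancer-null cells with the empty vector and 9.41 ± 1.45 TPM in wild-type cells, and was 1.86-fold higher with T354M than with GATA2 (adjusted p = 0.000699). Slc22a4, the carrier of the antioxidant ergothioneine, had 3.69 to 4.58 TPM with R307W, 5.57 to 7.13 TPM with T354M, 3.11 to 3.89 TPM with GATA2 and 2.30 to 2.95 TPM in enhancer-null cells with the empty vector, against 8.30 to 12.5 TPM in wild-type cells. It was 1.66-fold higher with T354M than with GATA2 (adjusted p = 0.000678) and 4.19-fold lower in enhancer-null cells with the empty vector than in wild-type cells (adjusted p = 1.06e-09).

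Neutrophil markers also ran higher with T354M than with GATA2. The summed level of 9 such markers was 3330 to 5960 TPM with R307W, 6190 to 9030 TPM with T354M, 2440 to 4420 TPM with GATA2, 5330 to 7810 TPM in enhancer-null cells with the empty vector and 12500 to 32400 TPM in wild-type cells, and 6 of the 9 were called higher with T354M than with GATA2. The markers' part in the difference between T354M and GATA2 was not tested.

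Among the 106 tested members, an ion exchanger had the largest increase in enhancer-null cells with the empty vector over wild-type cells. Slc8a1, the sodium-calcium exchanger of the plasma membrane (GRCm38 chr17:81373105-81738377, minus strand), had 16.9, 15.2, 17.8 and 12.6 TPM with R307W, 10.7, 17.8, 10.1 and 5.95 TPM with T354M and 13, 11.5, 17.5 and 7.45 TPM with GATA2. Enhancer-null cells with the empty vector had 20.6, 23.3, 24.6 and 23.2 TPM, against 3.96, 6.05, 4.47 and 4.65 TPM in wild-type cells. Each vector group lay between the empty-vector and wild-type libraries, apart from T354M replicate 4, which fell within the wild-type range. Slc8a1 was 4.52-fold higher in enhancer-null cells with the empty vector than in wild-type cells (log2 difference 2.17, SE 0.23, adjusted p = 6.05e-07). It was 2.14-fold lower with T354M (adjusted p = 0.00243) and 1.85-fold lower with GATA2 (adjusted p = 0.00945) than with the empty vector, and did not pass with R307W (log2 difference -0.59, SE 0.22, adjusted p = 0.0738).

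Slc25a45, a mitochondrial carrier, had 22.7, 21.2, 21.3 and 15.3 TPM with R307W, 23.4, 25.9, 21.6 and 18.1 TPM with T354M and 19.3, 18.3, 24.4 and 12.1 TPM with GATA2. With the empty vector, enhancer-null cells had 34, 31.8, 30.2 and 30.3 TPM, against 9.38, 12.8, 9.91 and 8.98 TPM in wild-type cells. The empty-vector libraries were above all others. Slc25a45 was 2.93-fold higher in enhancer-null cells with the empty vector than in wild-type cells (log2 difference 1.55, SE 0.14, adjusted p = 1.15e-07), and lower than with the empty vector by 1.60-fold with R307W (adjusted p = 0.00286), 1.47-fold with T354M (adjusted p = 0.0107) and 1.71-fold with GATA2 (adjusted p = 0.000818).

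A carrier of the phagosome, Slc11a1, and one of the lysosome, Slc15a4, were among this set, as were Slc37a2 and Slc43a2. Slc11a1, a metal transporter of the phagosome membrane, had 6.97, 7.61, 7.84 and 3.18 TPM with R307W, 6.45, 10.1, 7.71 and 4.16 TPM with T354M and 5.39, 4.59, 7.57 and 3.17 TPM with GATA2. The empty-vector enhancer-null libraries had 12.3, 12, 13.5 and 21.6 TPM, against 4.97, 4.02, 3.08 and 6.90 TPM in wild-type cells. The empty-vector libraries stood above all others. Slc11a1 was 2.88-fold higher in enhancer-null cells with the empty vector than in wild-type cells (adjusted p = 0.000744) and 2.70-fold lower with GATA2 than with the empty vector (adjusted p = 0.00425). Slc37a2, a sugar phosphate exchanger, averaged 7.79 ± 2.93 TPM with R307W, 7.31 ± 3.79 TPM with T354M, 6.88 ± 3.19 TPM with GATA2, 15.7 ± 2.75 TPM in enhancer-null cells with the empty vector and 4.28 ± 0.796 TPM in wild-type cells. It was 3.30-fold higher in enhancer-null cells with the empty vector than in wild-type cells (adjusted p = 0.000530), while each of its calls for a vector ended when one or another single library was left out, with GATA2 for example at an adjusted p of 0.0932 without GATA2 replicate 4.

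Slc15a4, a peptide and histidine transporter of lysosomes, averaged 13.3 ± 1.80 TPM with R307W, 13.6 ± 3.91 TPM with T354M, 12.3 ± 4.40 TPM with GATA2, 19.6 ± 2.92 TPM in enhancer-null cells with the empty vector and 9.31 ± 0.777 TPM in wild-type cells. It was 2.09-fold higher in enhancer-null cells with the empty vector than in wild-type cells (adjusted p = 1.17e-05). Slc43a2, a neutral amino acid transporter, averaged 12.1 ± 2.71 TPM with R307W, 11.3 ± 4.82 TPM with T354M, 10.3 ± 1.76 TPM with GATA2, 19.1 ± 1.04 TPM in enhancer-null cells with the empty vector and 5.74 ± 1.19 TPM in wild-type cells. It was 2.94-fold higher in enhancer-null cells with the empty vector than in wild-type cells (adjusted p = 6.54e-06) and 1.79-fold lower with GATA2 than with the empty vector (adjusted p = 0.00688). The monocyte and macrophage markers moved with these genes, with 9 of 9 called higher in enhancer-null cells with the empty vector than in wild-type cells and 7 of 9 called lower with GATA2 than with the empty vector. The summed level of 8 dendritic cell markers was 44.1 to 121 TPM with R307W, 48.3 to 128 TPM with T354M, 45.7 to 141 TPM with GATA2, 168 to 275 TPM in enhancer-null cells with the empty vector and 19.7 to 27.3 TPM in wild-type cells. Of these, 8 of 8 were called higher in enhancer-null cells with the empty vector than in wild-type cells and 7 of 8 lower with GATA2 than with the empty vector. The part of both lists in these differences was not tested.

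Slc46a3, a transporter of the lysosome membrane, did not follow this pattern. It had 3.75, 3.50, 4.66 and 2.13 TPM with R307W, 3.03, 3.82, 3.43 and 1.39 TPM with T354M and 3.56, 3.26, 4.74 and 3.47 TPM with GATA2. Enhancer-null cells with the empty vector had 8.32, 6.62, 8.74 and 7.06 TPM, and wild-type cells 7.19, 7.32, 10.9 and 9.39 TPM. The 12 libraries with a GATA2 vector lay below the 8 libraries with the control vector, whatever the genotype. Slc46a3 was lower than with the empty vector by 2.25-fold with R307W (adjusted p = 0.00257), 2.71-fold with T354M (adjusted p = 0.000445) and 2.05-fold with GATA2 (adjusted p = 0.00504), and the difference between enhancer-null and wild-type cells with the empty vector did not pass (log2 difference -0.30, SE 0.23, adjusted p = 0.321).

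**Figure D4:**
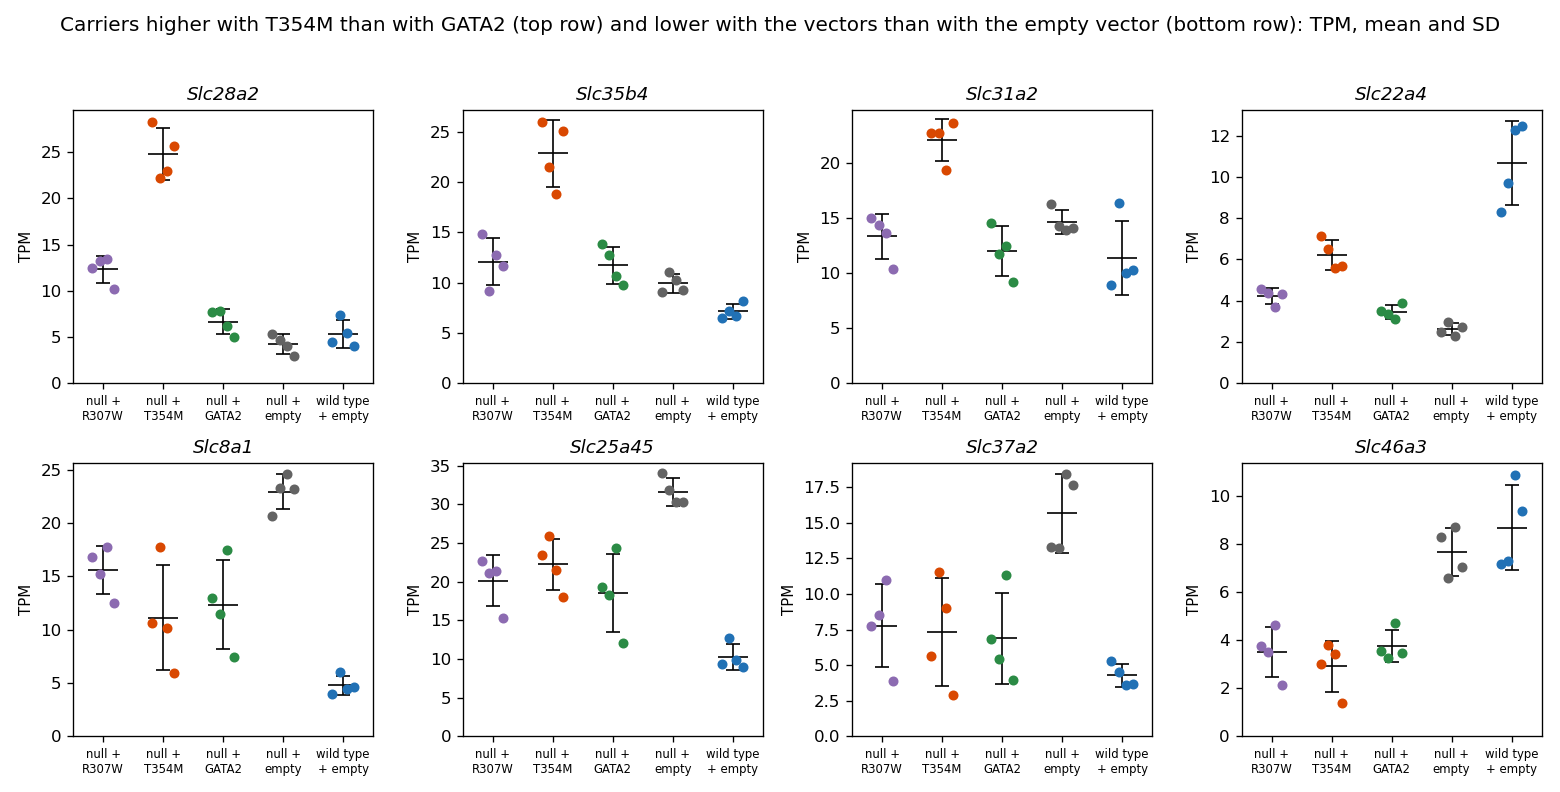
TPM (vertical axes, linear from 0) of 8 members in each library by group (horizontal axes, "null" for enhancer-null cells), with a point per library, a horizontal bar for the mean and error bars of 1 SD over 4 libraries. The T354M libraries of Slc28a2 sit between 22.2 and 28.3 TPM against 4.96 to 7.79 TPM with GATA2, and the empty-vector libraries of Slc8a1 sit between 20.6 and 24.6 TPM.

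Some carriers of the secretory pathway and of choline were moderately higher in enhancer-null cells. Slc35b1, which supplies the endoplasmic reticulum with ATP, averaged 35.1 ± 2.78 TPM with R307W, 37.4 ± 1.31 TPM with T354M, 32.2 ± 4.91 TPM with GATA2, 33.4 ± 3.07 TPM in enhancer-null cells with the empty vector and 21.2 ± 3.07 TPM in wild-type cells. It was 1.51-fold higher in enhancer-null cells with the empty vector than in wild-type cells (adjusted p = 9.82e-05) and 1.47-fold higher with GATA2 than in wild-type cells (adjusted p = 0.000320). Slc30a5, which loads zinc into the early secretory pathway, averaged 40.01 ± 5.204 TPM with R307W, 46.4 ± 2.08 TPM with T354M, 37.5 ± 4.64 TPM with GATA2, 38.3 ± 5.37 TPM in enhancer-null cells with the empty vector and 29.1 ± 3.11 TPM in wild-type cells, a 1.25-fold increase with the empty vector over wild type (adjusted p = 0.00718). Slc44a2, a choline transporter-like protein, averaged 28.2 ± 1.71 TPM with R307W, 30.4 ± 4.37 TPM with T354M, 24.9 ± 4.03 TPM with GATA2, 30.9 ± 1.49 TPM in enhancer-null cells with the empty vector and 18.2 ± 1.77 TPM in wild-type cells, and was 1.64-fold higher with the empty vector than in wild-type cells (adjusted p = 1.38e-07). None of the 3 was called between a variant and the empty vector. With GATA2, Slc44a2 was called lower than with the empty vector (log2 difference -0.3, adjusted p = 0.00454). This call ended in the limma fits with pseudocounts of 1 and 0.1 (adjusted p = 0.0687 and 0.0696). It also ended with no count filter (0.0606) and without replicate 4 of all groups (0.0559).

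Of the 21 members whose mean over all libraries was under 5 TPM, the 10 with the widest range of group means are given as levels, with no test. Slc45a3, a sugar transporter first known from the prostate, had 7.76, 4.51, 6.04 and 11.4 TPM with R307W, 3.03, 0.98, 0.98 and 3.76 TPM with T354M and 8.69, 5.65, 4.08 and 12 TPM with GATA2. It had 0.14, 0.07, 0.12 and 0.04 TPM in enhancer-null cells with the empty vector and 2.65, 1.14, 2.25 and 2.4 TPM in wild-type cells. The empty-vector libraries did not overlap any other group. Slc6a9, the glycine transporter that supports haem synthesis, had 1.80, 1.85, 1.99 and 3.21 TPM with R307W, 2.17, 0.93, 0.98 and 2.25 TPM with T354M and 6.89, 5.90, 2.58 and 10.2 TPM with GATA2, against 1.22, 1.12, 1.07 and 1.09 TPM in enhancer-null cells with the empty vector. Wild-type cells had 7.38, 5.92, 5.97 and 7.96 TPM of Slc6a9, within the range of the GATA2 libraries. For Slc6a9, 30.2% of exon bases overlap Ccdc24 on the opposite strand, and whether counting used strand is not given in the sources used here.

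Further members of this group were highest in wild-type cells. Slc26a1, an anion exchanger for sulfate and oxalate, averaged 1.93 ± 1.12 TPM with R307W, 0.195 ± 0.140 TPM with T354M, 2.18 ± 1.10 TPM with GATA2, 0.525 ± 0.147 TPM in enhancer-null cells with the empty vector and 15.9 ± 4.49 TPM in wild-type cells (SD, n = 4 each). Slc30a10, a manganese exporter, had 3.67 to 8.69 TPM in wild-type cells and at most 0.46 TPM in any enhancer-null library. Slc22a23, a relative of the organic ion transporters, averaged 2.34 ± 0.602 TPM with R307W, 0.720 ± 0.325 TPM with T354M, 2.17 ± 0.540 TPM with GATA2, 0.990 ± 0.168 TPM in enhancer-null cells with the empty vector and 10.1 ± 2.26 TPM in wild-type cells. Slc6a4, the serotonin transporter, and Slc44a1, a choline transporter, were also highest in wild-type cells, at 8.22 ± 2.09 TPM and 8.53 ± 1.07 TPM. In this set the T354M libraries had the lowest group mean for Slc26a1, Slc30a10, Slc22a23, Slc6a4 and Slc44a1.

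The remaining 3 of the 10 were highest in enhancer-null cells with the empty vector. Slc9a7, a sodium-proton exchanger of the Golgi network, averaged 3.29 ± 1.32 TPM with R307W, 2.79 ± 1.62 TPM with T354M, 2.72 ± 1.60 TPM with GATA2, 7.52 ± 0.579 TPM in enhancer-null cells with the empty vector and 0.840 ± 0.157 TPM in wild-type cells. Slc12a9, a relative of the cation-chloride cotransporters, averaged 4.25 ± 0.968 TPM with R307W, 4.10 ± 1.25 TPM with T354M, 3.07 ± 0.889 TPM with GATA2, 7.24 ± 0.884 TPM in enhancer-null cells with the empty vector and 1.67 ± 0.232 TPM in wild-type cells. Slc2a6, a hexose transporter of lysosomes, separated GATA2 from the variants, with 4.01, 4.74, 3.75 and 3.32 TPM with R307W, 3.24, 4.17, 3.18 and 2.69 TPM with T354M and 7.75, 7.63, 5.23 and 7.57 TPM with GATA2. It had 8.88, 7.46, 5.51 and 6.95 TPM in enhancer-null cells with the empty vector and 1.82, 2.78, 2.13 and 2.12 TPM in wild-type cells. The GATA2 and empty-vector libraries of Slc2a6 overlapped and lay above both variants.

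Genes that work with these carriers moved in both directions. Of 21 tested carriers without an Slc symbol, 10 were higher and 3 lower in enhancer-null cells with the empty vector than in wild-type cells, beside 20.1% and 23.2% of all genes tested, with a median log2 difference of 0.28. Among them, Spns2, an exporter of sphingosine-1-phosphate, averaged 28.6 TPM with R307W, 30.1 TPM with T354M, 27.8 TPM with GATA2, 12.6 TPM in enhancer-null cells with the empty vector and 7.76 TPM in wild-type cells. Rhag, an ammonium channel protein of red cells, averaged 3.21 TPM with R307W, 0.575 TPM with T354M, 5.25 TPM with GATA2, 1.64 TPM in enhancer-null cells with the empty vector and 54.7 TPM in wild-type cells, and was lower with T354M than with GATA2 (log2 difference -3.27, adjusted p = 5.44e-06). Of 7 partner proteins, 2 were higher and 3 lower in enhancer-null cells with the empty vector than in wild-type cells. The chaperones of the lactate transporters moved apart there, with Emb higher (log2 difference 1.76, adjusted p = 1.43e-06) and Bsg lower (log2 difference -0.60, adjusted p = 5.98e-05). Of 16 genes of the amino acid response driven by the transcription factor ATF4, 4 were higher and 6 lower in that comparison, and 4 were higher and 0 lower with GATA2 than with the empty vector, beside 11% and 8.23% of all genes tested.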

How the data were processed

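Levels and counts came from gene tables that the authors deposited for 20 libraries, 4 in each of 5 groups. The expected counts are reads assigned to genes by RSEM 1.3.0 after alignment with STAR 2.5.2b to mm10, per the submitters' processing notes, and the TPM values that the authors deposited beside them were used for levels. The annotation is not given in the sources used here. Symbols were matched to GENCODE M21, and 53274 of 53379 identifiers had a name. FPKM values were not used.

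Expected counts were rounded to whole numbers and tested in edgeR 4.0.16 (R 4.3.3) with filterByExpr, TMM scaling and a quasi-likelihood fit of 5 group means over all 20 libraries. The Benjamini-Hochberg adjustment ran over all 15835 genes tested, and an adjusted p under 0.05 was called. All 127 members passed the low-count filter. The 106 members with a mean of at least 5 TPM over all libraries were counted. A standard error is the log2 difference divided by the square root of the F statistic. RSEM divides reads shared between genes, so 12 members had fractional counts, and 11 members share over 10% of exon bases with another gene.

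Named genes were the called members without overlap between groups with the largest differences in each direction, the most abundant 2 of each substrate class, the 10 members under the mean filter with the largest ratio of group means, and those next to the threshold. Slc25a22, Slc7a6os and the genes that the selection rule leaves out were named outside this rule. A gene that this rule names is not reported here. The members and lists were chosen with earlier results of these data known.

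Same-numbered libraries deviated together, with every correlation over 0.1, for GATA2 against the empty vector, R307W against GATA2, T354M against GATA2 and R307W against T354M. For some numbers a library of another number correlated more. This held for replicate 2 of R307W against GATA2 (0.221 against 0.219) and of T354M against GATA2 (0.302 against 0.159). It also held for replicate 3 of R307W against T354M (0.338 against 0.204). No label says what a number marks. Alternatives were other size factors, no count filter, the replicate number as a block, the 8 libraries of a comparison alone, DESeq2 1.42.0, limma 3.58.1 on log2(TPM + 1) and log2(TPM + 0.1), another mean filter, and each library left out in turn.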

Additional observations from a re-analysis of the deposited data

Results flagged for a closer look

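In 295 groups of 4 libraries, from 59 named genes in 5 groups each, 11 groups had a library far from the other 3. Chance flags about 1 in 20 groups, or about 14.75 of these 295, so the 11 are no more than that.

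R307W replicate 4 was such a library for 5 genes. It was high for Slc41a3 at 5.35 TPM (3.31 to 3.55 TPM in the others), for Slc27a4 at 13.9 TPM (8.53 to 9.37 TPM), for Slc9a3r1 at 35.5 TPM (26.5 to 27.2 TPM) and for Slc6a9 at 3.21 TPM (1.80 to 1.99 TPM), and low for Slc15a4 at 10.7 TPM (13.82 to 14.47 TPM). R307W replicate 3 was high for Slc25a5 at 337 TPM (299 to 306 TPM) and for Slc19a2, a thiamine transporter, at 6.54 TPM (5.81 to 5.92 TPM).

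Among the GATA2 libraries, replicate 2 was high for the zinc transporter Slc39a7 at 34.9 TPM (33.7 to 33.8 TPM). Replicate 4 was low for Slc16a1 at 20.5 TPM (26.2 to 27.1 TPM) and replicate 3 for Slc2a6 at 5.23 TPM (7.57 to 7.75 TPM). In enhancer-null cells with the empty vector, replicate 4 was high for Slc11a1 at 21.6 TPM (12 to 13.5 TPM). Without it, Slc11a1 was no longer called between R307W and the empty vector (adjusted p = 0.0648) or between T354M and the empty vector (adjusted p = 0.0953).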

How the results depend on the processing

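Counts are given as higher, then lower. With all 235 tested Slc genes they were 61 and 70 for enhancer-null against wild-type cells, 40 and 39 for GATA2, 29 and 34 for R307W and 30 and 34 for T354M against the empty vector, 3 and 10 for R307W and 16 and 31 for T354M against GATA2, 13 higher for R307W against T354M, and 48 and 51 for GATA2 against wild-type cells. A mean filter of 10 TPM left 66 members in place of 106. With it the count was 13 lower for enhancer-null against wild-type cells. Against the empty vector it was 9 and 13 for GATA2, 6 and 9 for R307W and 9 and 7 for T354M. Against GATA2 it was 1 lower for R307W and 5 and 4 for T354M. R307W against T354M had 1 higher, and GATA2 against wild-type cells had 8 lower. Both sets use the main fit, and the shares of all genes tested given above stand beside these counts. Those shares are not limited to genes at 10 TPM or more. No share past that filter was computed, so the counts over the 66 members have no matched background. The limma fits with pseudocounts of 1 and 0.1 gave 6 and 6 lower for R307W, and 8 and 9 lower for T354M, against the empty vector. The shares of protein-coding genes were then 4.07% and 3.6% for R307W and 4.77% and 4.49% for T354M. The replicate block gave 6 lower for R307W and 13 higher for T354M against GATA2, and 8 higher for R307W against T354M. Beside these stood 1.5%, 7.15% and 3.31% of protein-coding genes, and the block moved no other count by over 1.5 times. The 8 libraries alone gave 0 lower for R307W against GATA2, beside 0.41% of protein-coding genes. DESeq2 gave 7 there, beside 1.46%, and 8 higher for R307W against T354M, beside 2.81%. No count filter gave 8 for the last, beside 2.27%. The cause of these shifts was not tested, apart from the genes tested under the other filters.

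Leaving out single libraries or replicate 4 of all groups gave 34 to 40 and 24 to 26 for enhancer-null against wild-type cells, 15 to 21 and 11 to 22 for GATA2, 7 to 13 and 6 to 17 for R307W and 8 to 14 and 6 to 17 for T354M against the empty vector. It gave 1 to 1 and 0 to 7 for R307W and 7 to 10 and 9 to 14 for T354M against GATA2, 4 to 8 and 4 to 8 for R307W against T354M, and 24 to 35 and 15 to 19 for GATA2 against wild-type cells. The shares of protein-coding genes moved as well. Without empty-vector replicate 4 of enhancer-null cells, for example, they were 23.1% higher and 20.7% lower for enhancer-null against wild-type cells. In the same fit they were 9.58% and 5.23% for GATA2 and 8.71% and 3.86% for R307W against the empty vector. With all libraries the last 2 were 11.6% and 7.92%. The ranges of the members are thus not set against a fixed background. Of 147 named calls, 126 to 147 were kept under the other fits and 123 without replicate 4 of all groups.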
